A study of Mus musculus with 9 samples.

Results

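Egf, Ren1, Crisp1 and Crisp3 are 4 genes for secreted proteins of the granular convoluted ducts of the mouse submandibular gland that are not kallikreins. They are 4 of the 54532 genes in the deposited count table, and all 4 passed the filter on low counts. The genes were picked by name with their values over these libraries already known, so their levels and differences are given below as a description, with standard errors and without a test. The RNA came from submandibular glands of mice of the WT genotype, each of which had received 10 Gy of radiation, at 30, 60 or 90 days after the dose, with 3 samples at each time. Each sample was total RNA from 4 sections of 50 µm, made into a bulk mRNA-seq library. All 9 glands were irradiated, so time after the dose and the age of the animal cannot be told apart, and non-irradiated glands are not analysed here. The labels give no strain, sex or age, and they do not say that the 3 samples of a time point are separate animals, so the p-values below measure only the spread between these samples. In bulk RNA, fewer cells of a type and less RNA per cell cannot be told apart.

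The granular convoluted ducts of rodent submandibular glands are lengths of duct whose cells store growth factors and proteases in dense secretory granules and release them into saliva. They arise from striated ducts around puberty, are larger in males than in females in mice, and depend on androgens, thyroid hormone and adrenal steroids. Egf encodes the precursor of epidermal growth factor, a ligand of the receptor Egfr, and the mouse submandibular gland is a classic source of the protein. Ren1 encodes renin, the protease that cuts angiotensinogen at the first step of the angiotensin pathway. Crisp1 and Crisp3 encode cysteine-rich secretory proteins of the CAP superfamily, of which Crisp1 is best known from the epididymis and sperm and Crisp3 from salivary gland.

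The libraries held 16541396 to 26065856 counts, and the 30-day libraries were the shallowest. The acinar gene Mucl2 alone took 31.4% to 42.8% of the counts, with the highest share in 30-day sample 1. The 4 genes together took 0.195% of the counts in that library and up to 1.75% elsewhere. Ddx3y, Uty, Kdm5d and Eif2s3y, which lie on the Y chromosome, had 0 counts in all 9 libraries, where 3 counts would be 0.101 to 0.212 CPM (counts of a gene per 1000000 counts of the library). Xist, the RNA of the inactive X chromosome, lay at 184 to 319 CPM in every library. By these genes all 9 libraries had the pattern of female tissue, with no sign of a mix of sexes between the time points.

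All 4 genes were lower at 30 days than at 60 or 90 days in every library. Egf and Crisp3 were more than 3-fold higher at 60 than at 30 days and lay near the same level at 90 days. Ren1 had its highest mean at 60 days and Crisp1 at 90 days. Levels are CPM scaled with edgeR's trimmed mean of M-values (TMM), and the means are given ± SD over 3 samples. The plot of the 4 genes by library shows these patterns.

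**Figure D1:**
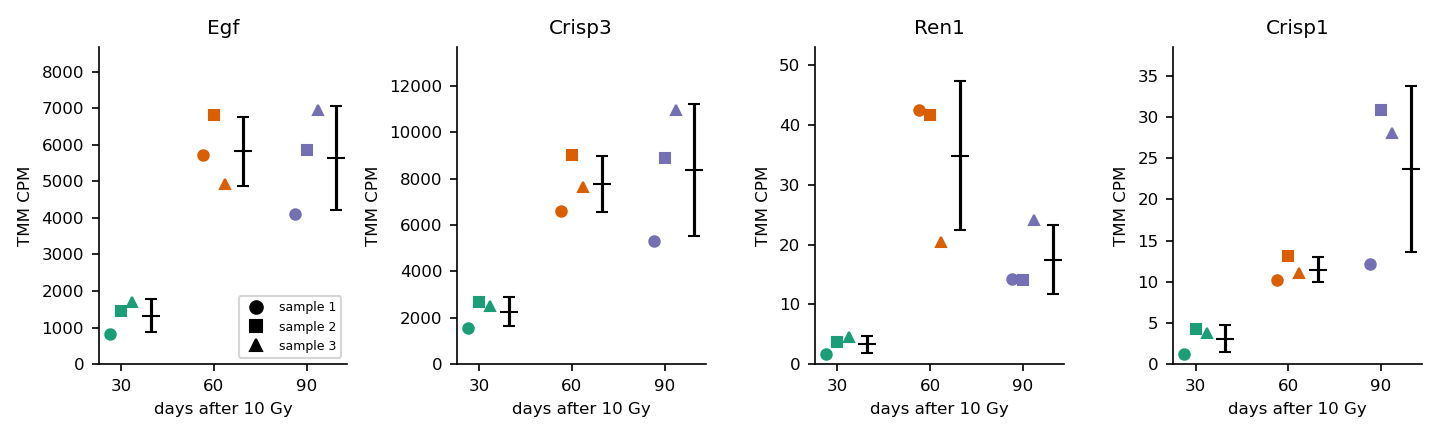
Level of Egf, Crisp3, Ren1 and Crisp1 (y axes, TMM-scaled CPM, linear, a separate scale for each gene) against days after 10 Gy (x axes). Points are libraries, with the symbol giving the sample number, and the bars are the mean ± SD (n = 3). Every 30-day point lies below every 60-day and 90-day point of its gene, while the 60-day and 90-day points overlap.

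Egf lies on the minus strand of chromosome 3, at chr3:129677565-129755316 (GRCm38, GENCODE M21; ENSMUSG00000028017). Egf was at 810, 1464 and 1696 CPM in 30-day samples 1, 2 and 3. It was at 5716, 6810 and 4937 CPM in the 60-day samples. The 90-day samples held 4112, 5854 and 6936 CPM. The lowest value was that of 30-day sample 1, the 30-day libraries did not overlap the others, and the 60-day and 90-day ranges lay over each other. The 30-day mean was 1324 ± 459 CPM, the 60-day mean 5821 ± 941 and the 90-day mean 5634 ± 1425. The log2 difference was 2.14 ± 0.26 (SE) between 60 and 30 days, a 4.40-fold higher level, and -0.05 ± 0.25 between 90 and 60 days. By mean CPM, Egf ranked 23 of the 15224 genes tested at 30 days and 12 at both later times.

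The Egf locus overlaps 3 antisense genes and 1 miRNA gene in the annotation, and the sources used here do not give the strand setting of the counting. The antisense gene 6330410L21Rik reached at most 96 counts, Gm42697 at most 54 and Gm42650 at most 6, and the miRNA gene Gm24515 reached at most 37. Egf itself had 11441 to 170452 counts, so the counts assigned to these neighbours were small beside its own. Reads from the antisense strand that were counted as Egf cannot be told apart in these files.

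Renin was a scarce transcript beside Egf. Ren1 lies on the plus strand of chromosome 1, at chr1:133350510-133360325 (GRCm38; ENSMUSG00000070645), and no other annotated gene overlaps it. It was at 1.70, 3.62 and 4.55 CPM in the 30-day samples. The 60-day samples held 42.4, 41.6 and 20.5 CPM. The 90-day samples held 14.3, 14.0 and 24.1 CPM. The 60-day samples 1 and 2 were the highest of all, and 60-day sample 3 lay inside the range of the 90-day samples. The lowest of these libraries, 30-day sample 1, had 24 Ren1 reads, for which counting error alone gives a 95% Poisson interval of 15.4 to 35.7.

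The Ren1 mean was 3.29 ± 1.46 CPM at 30 days, 34.8 ± 12.5 at 60 days and 17.5 ± 5.75 at 90 days. The difference between 60 and 30 days was 3.38 ± 0.45 on the log2 scale, a 10.4-fold higher level and the largest of the 4 genes. Between 90 and 60 days the log2 difference was -1.003 ± 0.38, and the libraries of these times overlapped. Ren1 ranked 10532 by mean CPM among the 30-day means, 2821 among the 60-day and 5312 among the 90-day means. Some mouse strains carry a second renin gene, Ren2, which is strongly expressed in the submandibular gland. No Ren2 entry was matched in the table and the strain is not labelled, so whether Ren2 reads were counted as Ren1 was not tested.

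Crisp1 and Crisp3 are neighbours on the minus strand of chromosome 17, at chr17:40293758-40319207 (ENSMUSG00000025431) and chr17:40221777-40242288 (ENSMUSG00000025433) in GRCm38. The 250 bases before their start sites are shown because the genes differ widely in level while these stretches are nearly the same. They are from RefSeq (GRCm38.p6), at chr17:40319208-40319457 for Crisp1 and chr17:40242289-40242538 for Crisp3, read 5′ to 3′ on the minus strand. Capitals mark the 11 positions at which the 2 sequences differ. The other 239 of 250 bases, or 95.6%, are identical.
Crisp1: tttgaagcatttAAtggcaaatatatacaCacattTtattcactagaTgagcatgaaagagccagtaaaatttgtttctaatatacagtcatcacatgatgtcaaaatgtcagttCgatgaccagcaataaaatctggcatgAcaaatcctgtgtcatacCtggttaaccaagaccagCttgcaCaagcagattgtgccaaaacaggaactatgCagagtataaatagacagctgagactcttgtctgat
Crisp3: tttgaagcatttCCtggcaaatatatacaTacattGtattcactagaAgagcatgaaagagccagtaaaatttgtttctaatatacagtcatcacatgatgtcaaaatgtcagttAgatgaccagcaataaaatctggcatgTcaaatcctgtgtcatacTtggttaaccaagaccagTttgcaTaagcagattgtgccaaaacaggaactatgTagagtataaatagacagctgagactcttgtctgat

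The letters TATAAA begin 31 bases before the start site on the gene strand in both Crisp sequences, and 29 bases before it in the matching window of Ren1. The RefSeq start site of Ren1 lies 164 bases inside the GENCODE gene given above, and its window overlaps 1 annotated exon. The Egf window does not hold them on either strand. Among 32851 windows of the same length in the RefSeq table, 12.4% hold TATAAA on either strand and 7.59% on the gene strand. A match or its absence in these windows is a description of the letters only.

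Crisp3 was the most abundant of the 4 genes at every time. It was at 1558, 2699 and 2524 CPM in the 30-day samples. The 60-day samples held 6619, 9014 and 7660 CPM. The 90-day samples held 5294, 8876 and 10945 CPM. As for Egf, 30-day sample 1 was lowest, the 30-day libraries lay apart, and the 60-day range fell inside the 90-day range. The mean was 2260 ± 615 CPM at 30 days, 7764 ± 1201 at 60 days and 8371 ± 2859 at 90 days. The log2 difference was 1.78 ± 0.26 between 60 and 30 days, which is 3.43-fold, and 0.11 ± 0.25 between 90 and 60 days. Its rank by mean CPM was 18 at 30 days, 10 at 60 days and 9 at 90 days.

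Crisp1 was low throughout and had its highest mean at 90 days. It was at 1.20, 4.28 and 3.79 CPM in the 30-day samples, from 17, 72 and 64 reads. The 60-day samples held 10.2, 13.1 and 11.0 CPM. The 90-day samples held 12.2, 30.8 and 28.1 CPM. The 60-day libraries lay close together, and 90-day sample 1 fell among them while the other 90-day samples lay above. For the 17 reads of 30-day sample 1, the 95% Poisson interval is 9.90 to 27.2 reads, counting error only.

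The Crisp1 mean was 3.09 ± 1.65 CPM at 30 days, 11.4 ± 1.50 at 60 days and 23.7 ± 10.1 at 90 days. The log2 difference was 1.86 ± 0.49 between 60 and 30 days and 1.05 ± 0.41 between 90 and 60 days. Over the whole interval from 30 to 90 days it was 2.91 ± 0.48, or 7.49-fold, beside 2.37 ± 0.45 for Ren1, 2.09 ± 0.26 for Egf and 1.89 ± 0.26 for Crisp3. The mean rank of Crisp1 among the tested genes was 10656, 6935 and 4133 at the 3 times in order. The comparisons share libraries, so these differences are not independent of each other.

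At 60 against 30 days, 4 of 4 genes were higher with no overlap of libraries, as were 8.65% of the 15224 genes tested, while 8.22% were lower without overlap. At 90 against 30 days, 4 of 4 were again higher without overlap, beside 11.4% of all genes higher and 11.8% lower. At 90 against 60 days, 0 of 4 separated in either direction, beside 8.3% of all genes that separated upwards and 7.64% downwards. The genes were chosen for these levels, and nothing is read from those counts. The library of 30-day sample 1 had the lowest level of all 4 genes. Without it, the 60 against 30 day differences were 1.88 ± 0.22 for Egf, 3.09 ± 0.46 for Ren1, 1.50 ± 0.42 for Crisp1 and 1.57 ± 0.25 for Crisp3 on the log2 scale. The 90 against 30 day differences were then 1.83 ± 0.22, 2.08 ± 0.46, 2.55 ± 0.41 and 1.68 ± 0.25 in the same order.

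**Figure D2:**
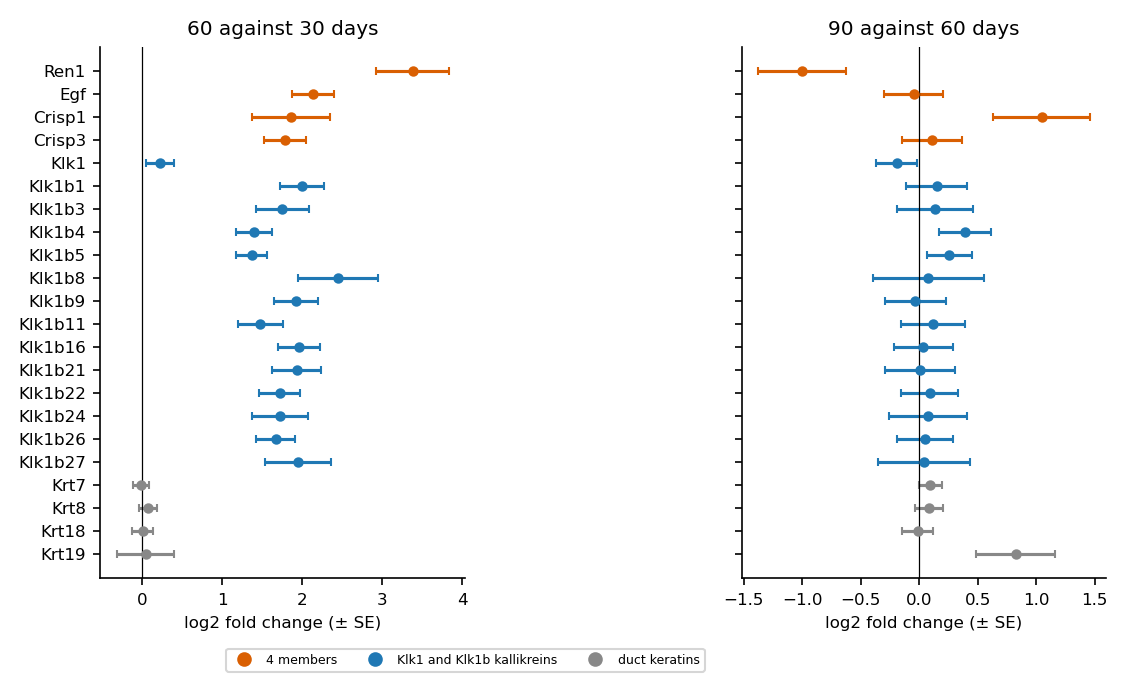
Log2 fold change ± SE (x axes) of the 4 genes, Klk1, the Klk1b kallikreins and 4 keratins of the duct marker list (y axis) at 60 against 30 days (left) and at 90 against 60 days (right), from edgeR. The 2 panels have different x scales. The 4 genes lie between 1.78 and 3.38 on the left, and on the right Ren1 lies at -1.003 and Crisp1 at 1.05 with Egf and Crisp3 near 0.

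Because reads fall along the length of a transcript, levels of different genes were compared per kilobase of the longest coding transcript, which has 4761 bases for Egf, 1592 for Ren1, 1416 for Crisp1 and 1417 for Crisp3. At 30 days the order in CPM per kilobase was Crisp3 (1595 ± 434), Egf (278 ± 96.5), Crisp1 (2.18 ± 1.17) and Ren1 (2.07 ± 0.914). The values of Crisp1 and Ren1 overlapped. At 60 days Crisp3 (5479 ± 847) and Egf (1223 ± 198) came before Ren1 (21.9 ± 7.82) and Crisp1 (8.08 ± 1.06), and no 2 genes overlapped. At 90 days the values were 5908 ± 2018 for Crisp3, 1183 ± 299 for Egf, 16.7 ± 7.11 for Crisp1 and 11.0 ± 3.61 for Ren1, with the last pair overlapping.

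Crisp1 and Crisp3 have transcripts that are 91.1% identical over 1397 aligned columns, and the longest identical run is 70 bases. Of the 1367 stretches of 50 bases in Crisp1, 33 (2.41%) also occur in Crisp3. Of its stretches of 75 or 100 bases, 0 do. The read length and the treatment of reads with several matches are not given in the sources used here. Crisp3 had far more counts than Crisp1 in every library, so the Crisp1 level is uncertain as far as the counting could assign reads of one to the other.

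Ratios of raw counts within a library do not depend on the scaling. Crisp1 had 0.773, 1.58 and 1.50 counts per 1000 Crisp3 counts in the 30-day samples. In the 60-day samples it had 1.54, 1.45 and 1.44. In the 90-day samples it had 2.30, 3.47 and 2.57. The mean ratio was thus 1.29 ± 0.446, 1.48 ± 0.0521 and 2.78 ± 0.615, and every 90-day library lay above every earlier one. How often the ratios of other gene pairs separate in this way was not tested, so nothing is read from this separation.

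Ren1 per 1000 Egf counts was 2.10, 2.47 and 2.68 at 30 days. It was 7.42, 6.11 and 4.15 at 60 days. At 90 days it was 3.47, 2.40 and 3.48. Every 60-day library lay above all the others, while the 30-day and 90-day libraries overlapped. The means were 2.42 ± 0.297, 5.89 ± 1.65 and 3.12 ± 0.621. The share of other gene pairs whose ratios separate likewise was not tested, and nothing is read from the separation of the 60-day libraries. Crisp3 counts per Egf count were 1.75 ± 0.232, 1.34 ± 0.198 and 1.46 ± 0.153 at the 3 times. The libraries of all times overlapped in this ratio, which lay between 1.16 in 60-day sample 1 and 1.92 in 30-day sample 1.

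**Figure D3:**
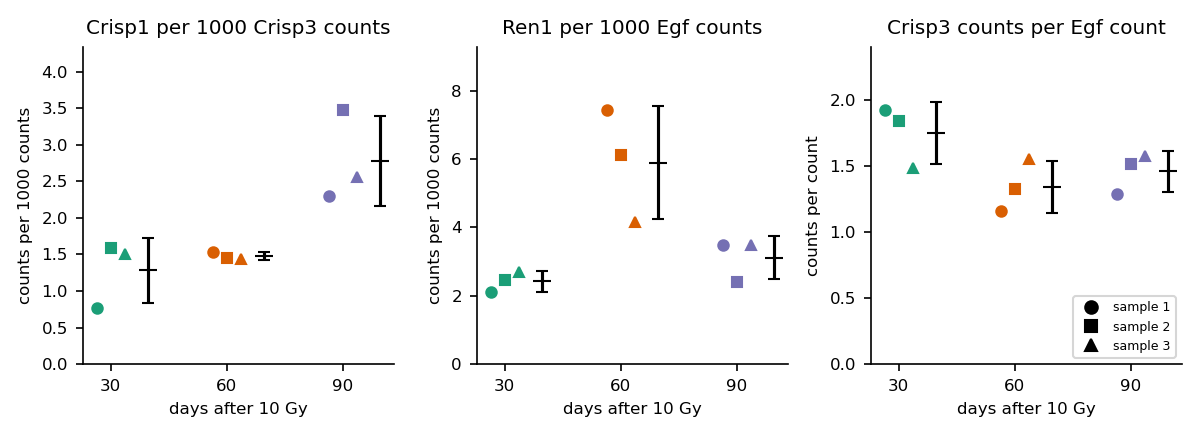
Raw counts of Crisp1 per 1000 Crisp3 counts, of Ren1 per 1000 Egf counts and of Crisp3 per Egf count (y axes, each with its own scale from 0) against days after 10 Gy (x axes). Points are libraries, symbols give the sample number and bars are the mean ± SD (n = 3). The first ratio is highest at 90 days (2.30 to 3.47), the second at 60 days (4.15 to 7.42), and the third lies between 1.16 and 1.92 with overlap between all times.

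The likeness of 2 patterns was measured as the root mean square difference between their log2 CPM values over the 9 libraries, each gene centred on its own mean. A value of 0 means the same course, and 13014 genes with a mean of at least 1 CPM were compared with each of the 4. The closest 3 genes to Egf included Klk1b1, at 0.109, and Klk1b21, at 0.131, where the median over all genes was 1.09. Crisp3 was closest to Klk1b11 (0.161), Klk1b21 (0.168) and Klk1b26 (0.180), with a median of 0.952. The Klk1b genes encode kallikrein-related serine proteases of the granular ducts.

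The other pair had no neighbour that close. Ren1 and Crisp1 had as few as 24 and 17 reads, in 30-day sample 1, and the part of counting error in their distances was not tested. Ren1 was nearest to Klk1b8 (0.481), and Klk1b16 (0.619) was also among its closest 3 genes, with a median over all genes of 1.53. Crisp1 was nearest to Klk1b8 (0.464), Klk1b1 (0.509) and Klk1b3 (0.511), with a median of 1.38. Among themselves, Egf and Crisp3 differed by 0.222, and the widest gap was that of Ren1 and Crisp1, at 0.925. The Klk1b genes share long stretches of sequence, so counts of single Klk1b genes are uncertain where the counting could split reads between copies.

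**Figure D4:**
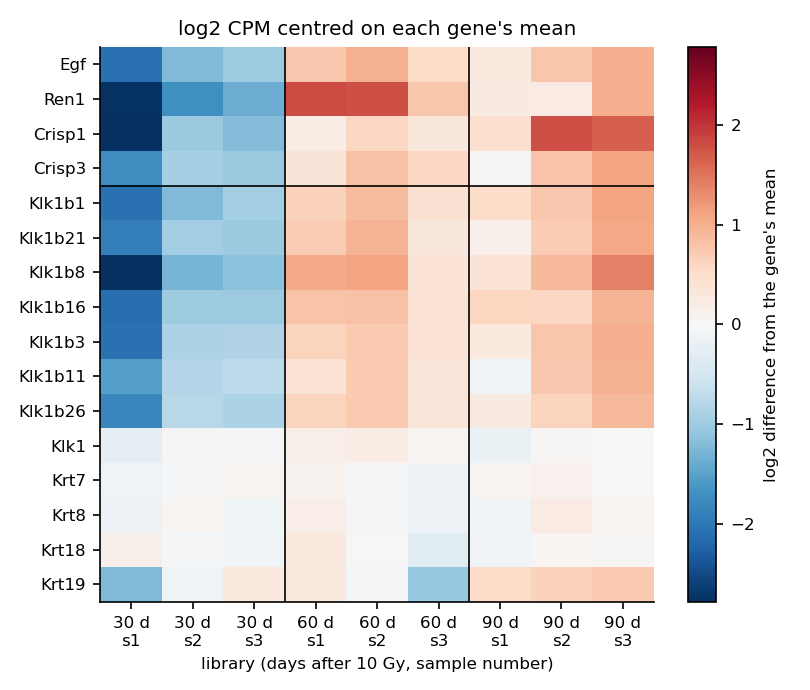
Heat map of log2 CPM centred on each gene's mean (colour scale, log2 units) for the 4 genes (top), the Klk1b kallikreins among the genes closest to them and Klk1 with 4 keratins of the duct marker list (bottom), with the 9 libraries along the x axis by day and sample (s1 to s3). The 4 genes and their neighbours are negative in all 30-day libraries and lowest in 30-day sample 1, Ren1 is highest in 60-day samples 1 and 2, and Crisp1 in 90-day samples 2 and 3.

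Of 17 other granular duct products listed with the 4 genes, 15 were tested, and the other two, Smr2 and Smr3a, were too low. At 60 against 30 days, 11 of the 15 rose and 0 fell by edgeR's quasi-likelihood test with Benjamini-Hochberg adjustment over all tested genes, where 1.56% of all genes were called (1.14% higher, 0.427% lower). Their median log2 difference was 1.75, beside -0.00 over all tested genes. At 90 against 30 days 12 rose and 0 fell, with a median of 1.88 beside 0.01, and 3.57% of all genes were called (1.81% higher, 1.77% lower). Between 60 and 90 days 0 passed, 0 had an unadjusted p under 0.05, and DESeq2 and limma-voom also called 0, where 0.256% of all genes were called (0.092% higher, 0.164% lower). The count of 11 became 2 without 60-day sample 1, 7 without 60-day sample 2, 7 with no filter and 5 with library-size scaling or with Mucl2 left out of the totals. That of 12 became 7 without 90-day sample 2 and 7 with the 60-day samples left out of the fit. Of the 15 tested genes, 13 are Klk1b genes, which gave 10 of the 11 calls and 11 of the 12. They are related copies whose single counts are uncertain, as given above, so the calls are not those of separate products. The list was compiled with results of these data known and is no independent evidence of its direction.

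Klk1b5 rose by 1.37 ± 0.19 at 60 days (edgeR adjusted p = 0.00139) and Klk1b26 by 1.67 ± 0.25 (adjusted p = 0.00212), and both calls held under all 18 settings with no overlap of libraries. Klk1, the tissue kallikrein, did not pass, with means of 19184, 22426 and 19593 CPM and a log2 difference of 0.23 ± 0.17 at 60 days (edgeR adjusted p = 0.655). Set against it, Egf had 67.9 ± 18.8 counts per 1000 Klk1 counts at 30 days, 259 ± 28.3 at 60 days and 285 ± 57.7 at 90 days.

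The summed level of 15 markers of the ductal epithelium was 1536 to 1614 CPM at 30 days, 1743 to 1815 at 60 days and 1790 to 1970 at 90 days. Most of the difference in this sum lay in 1 gene, the duct transcription factor gene Tfcp2l1, at 628, 801 and 799 CPM (log2 difference 0.35 ± 0.13 at 60 against 30 days, edgeR adjusted p = 0.229). All 15 had counts in some libraries and were tested, and 1 rose at 60 against 30 days: Scnn1b, a subunit of the epithelial sodium channel, by 0.51 ± 0.12 (edgeR adjusted p = 0.0288, lost under 7 of 18 other settings). At 90 against 30 days Scnn1b and the sister subunit Scnn1g rose, by 0.54 ± 0.12 and 0.47 ± 0.12 (edgeR adjusted p = 0.0123 and 0.0383), calls lost under 2 and 7 of 18 other settings, and 0 of the 15 fell. There limma-voom called 1 of the list and DESeq2 4. Between 60 and 90 days edgeR, DESeq2 and limma-voom called 0, with 4 at an unadjusted p under 0.05 in edgeR. Krt7, a keratin of ducts, lay at 115, 114 and 121 CPM. Set against the mean log2 level of Krt7, Krt8, Krt18 and Krt19 in the same library, the 60 against 30 day differences were 2.16 for Egf, 3.41 for Ren1, 2.05 for Crisp1 and 1.78 for Crisp3. They are differences of mean log2 CPM, a different measure from the edgeR estimates given above. A gap between the measures is therefore not an effect of the keratins alone. Krt19 has equal weight in this mean although it lay at only 3.75, 3.91 and 6.91 CPM. Whether the 4 keratins are confined to ducts was not tested, so these differences are no correction for duct content.

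The summed level of the acinar markers, none of which was at 0 in every library, was 457983 to 647995 CPM at 30 days, with the top value in 30-day sample 1, 366547 to 534099 at 60 days and 311738 to 459075 at 90 days. Most of this sum was Mucl2, with means of 427351, 377261 and 318408 CPM, and Prol1, with 84762, 61970 and 47725 CPM. Neither of these genes was called by edgeR. Of 14 tested, Amy1 rose at 60 against 30 days and 0 fell. At 60 against 30, 90 against 60 and 90 against 30 days, 4, 6 and 11 had an unadjusted p under 0.05 in edgeR. DESeq2 called 3, 3 and 8 of the list in these comparisons, and limma-voom 3, 2 and 6. Directions were mixed at 90 against 30 days, where 6 of the 14 had a positive log2 difference. The largest, 3.15, was not called and belonged to a scarce and variable gene. That gene had a mean of 0.347 CPM at 30 days and 0.303 to 6.59 CPM in the 90-day libraries. Between 60 and 90 days 1 fell, the acinar transcription factor gene Bhlha15, by 0.78 ± 0.12 (edgeR adjusted p = 0.00581, lost under 2 of 18 other settings). At 90 against 30 days Amy1 rose, and Aqp5, Lpo and Chrm3 fell by 0.57, 0.60 and 0.53 on the log2 scale (edgeR adjusted p = 0.0113, 0.0454 and 0.0148), calls lost under 3, 7 and 5 of 18 other settings. Their part in the levels of the 4 genes was not tested. With Mucl2 left out of the library totals, the 60 against 30 day differences were 2.07 for Egf, 3.31 for Ren1, 1.81 for Crisp1 and 1.73 for Crisp3.

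None of the listed ligands and receptors around Egf was called. Of 10 other EGF receptor ligands, 6 were tested and 0 were called by edgeR in any of the 3 comparisons, with 0, 0 and 2 at an unadjusted p under 0.05 at 60 against 30, 90 against 60 and 90 against 30 days. Of 15 receptors and regulators 0 were called, with 2, 2 and 3 at an unadjusted p under 0.05, and DESeq2 and limma-voom also called 0 in both lists. Egfr, the receptor of Egf, lay at 23.6, 22.0 and 24.6 CPM at 30, 60 and 90 days. Its partners lay at 46.5, 41.2 and 39.7 CPM (Erbb2), 75.9, 84.0 and 76.1 CPM (Erbb3) and 4.97, 5.85 and 6.05 CPM (Erbb4). Tgfa, another Egfr ligand, lay at 9.47, 9.66 and 9.27 CPM, far below Egf at every time.

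In the renin-angiotensin system the gene for the substrate of renin fell from 30 to 90 days. Agt, which encodes angiotensinogen, was at 476 ± 58.8 CPM at 30 days, 388 ± 37.3 at 60 days and 279 ± 29.2 at 90 days. It fell by 0.77 ± 0.12 on the log2 scale between 30 and 90 days (edgeR adjusted p = 0.00162), a call that held under all 18 other settings, and every 90-day library lay below every 30-day library. Of 18 listed genes of the system, 12 were tested. At 60 against 30 days 1 rose, the peptidase Mme (0.49 ± 0.12, edgeR adjusted p = 0.0439), a call lost under 12 of 18 settings, and 4 of the 12 had an unadjusted p under 0.05. At 90 against 30 days Mme rose (0.45 ± 0.12, edgeR adjusted p = 0.0383, lost under 6) and Agt fell. Between 60 and 90 days edgeR called 0, with 2 at an unadjusted p under 0.05, DESeq2 called 1 and limma-voom 0.

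Atp6ap2, the (pro)renin receptor, lay at 46.7, 48.5 and 48.7 CPM, and Ace, which makes angiotensin II, at 19.1, 16.2 and 17.2 CPM. The angiotensin receptor gene Agtr1a had 0.813, 0.360 and 0.776 CPM. Agtr1b and the protease gene Ctsg had 0 counts in all 9 libraries.

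Of 13 other CAP superfamily genes listed, 5 were tested and edgeR called 0 in each comparison, with 0, 0 and 1 at an unadjusted p under 0.05, and DESeq2 and limma-voom called 0. Crispld2, a secreted member, lay at 16.4, 15.9 and 16.2 CPM, and Crisp4 had 0 counts in all 9 libraries. Of 13 steroid and thyroid hormone receptor genes and steroid reductases, 11 were tested and edgeR, DESeq2 and limma-voom called 0 in each comparison, with 1, 2 and 1 at an unadjusted p under 0.05 in edgeR.

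**Figure D5:**
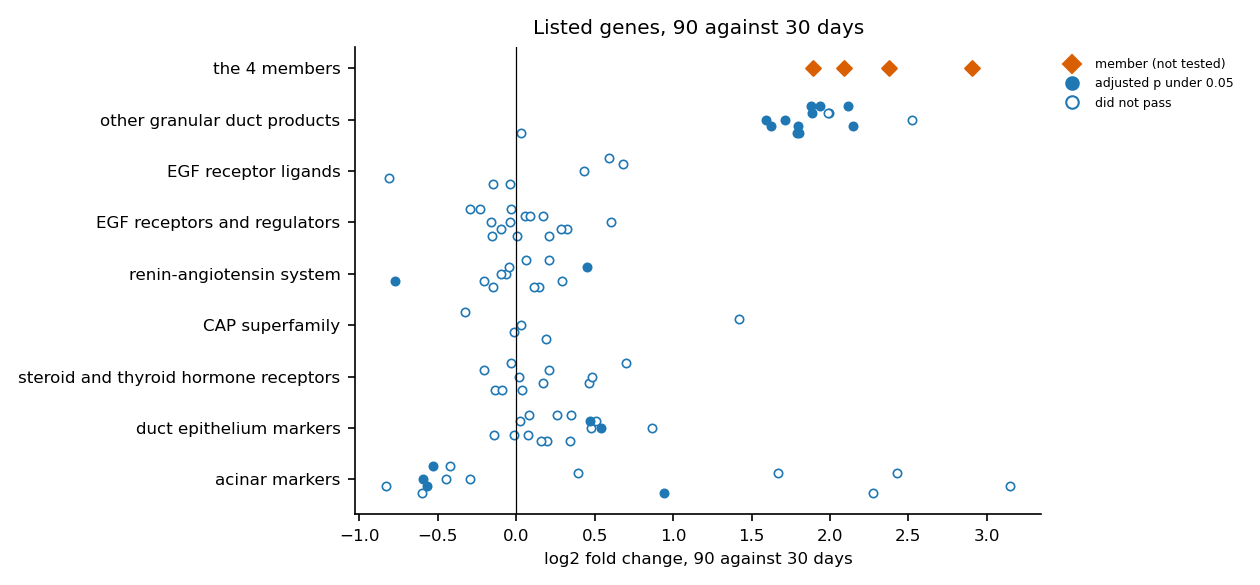
Log2 fold change at 90 against 30 days (x axis) for the genes of each list (y axis), with the 4 genes as diamonds without a test, other genes as filled circles where the edgeR adjusted p was under 0.05 and open circles where it was not. The 4 genes lie at 1.89 to 2.91 and the other granular duct products at 0.03 to 2.52, with Crisp1 above all of them. Of these products 12 of 15 are filled, 11 of them Klk1b genes, while 0 of the EGF receptor ligands and 0 of the receptors are filled.

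The myoepithelial, fibroblast, endothelial, lymphocyte, macrophage, adipocyte and skeletal muscle lists each had 0 genes called by edgeR in each comparison. Only 1 of 5 adipocyte genes and 2 of 6 skeletal muscle genes were tested, so these 2 lists say little about those cells. The summed myoepithelial level was 291 to 406 CPM at 30 days, 440 to 484 at 60 days and 398 to 551 at 90 days, with 3, 0 and 4 of 5 tested genes at an unadjusted p under 0.05. The summed lymphocyte level was 15.3 to 21.9, 11.5 to 22.7 and 22.7 to 40.6 CPM, with 0, 3 and 3 of 4 tested genes at an unadjusted p under 0.05. DESeq2 called 2 genes in each of these lists at 90 against 30 days, and limma-voom called 0. The fibroblast list had 1, 0 and 1 genes at an unadjusted p under 0.05, the other lists had 0, and both other tools called 0 in them. The part of these cells in the levels of the 4 genes was not tested.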

How the data were processed

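Per the submitters' processing notes, the reads were handled with fastp, STAR and featureCounts, and mm10 is the build named. Versions, annotation, strand setting and treatment of multi-mapping reads are not given in the sources used here. The deposited table holds the authors' raw counts per gene, with no normalization. Samples were grouped by the day in their titles, and 3 columns that match no listed sample were not used. Of 54532 identifiers, 54409 were named from the reference annotation. Genes were kept with edgeR 4.0.16's filterByExpr (minimum count 10), scaled with TMM over all 9 libraries and tested with edgeR's quasi-likelihood test in R 4.3.3, adjusted over all 15224 genes at a threshold of 0.05. The fit was tested on simulated data. DESeq2 1.42.0 and limma 3.58.1 (voom) were alternatives. Counts of 16541396 to 26065856 per library limit the precision of Ren1 and Crisp1.

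The members and 16 lists (166 symbols) were chosen with earlier results of these data known. Beside the members, the genes named are a fixed set of ligands, receptors and markers, up to 4 called genes of smallest adjusted p per list and comparison, and the 3 genes most like each member (prior count 2), except a few that are not reported here. Klk1 and the Klk1b genes, Klk1b8 included, are named under the last part of that rule or as listed duct products. Gm42697, Gm42650, 6330410L21Rik, Gm24515, the sex-linked genes, Crisp4, Agtr1b, Ctsg and Tfcp2l1 lie outside it and were named after their values were seen. Transcripts were aligned with Biopython 1.88 on GENCODE M21, and upstream sequences are from RefSeq GRCm38.p6. Figures were drawn with matplotlib 3.10.9.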

Additional observations from a re-analysis of the deposited data

Results flagged for a closer look

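The course of 2 genes of the acinar list differed between the steps of the time course by a test of the difference itself, 60 days against the mean of 30 and 90 days in edgeR. Bhlha15 was higher at 60 days by 0.63 on the log2 scale (adjusted p = 0.00643), with group means of 365, 510 and 297 CPM. Amy1, an amylase gene, was higher by 0.61 (adjusted p = 0.0418), with 7.33, 15.5 and 14.1 CPM. Its log2 difference between 90 and 60 days was only -0.14 ± 0.14 (edgeR adjusted p = 0.791). For Amy1 the contrast thus reflects the low 30-day level and no fall after 60 days was called. Neither of the 2 genes was listed as a granular duct product, and the cells they came from were not tested. The same difference was not tested for Egf, Ren1, Crisp1 and Crisp3, since they were chosen for their values in these libraries.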

How the results depend on the processing

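The 12 log2 differences of the 4 genes (4 genes, 3 comparisons) moved by less than the spread between replicates under every setting tried, 19 for each. Settings that leave out 1 sample could hardly exceed that spread, since 1 library of 3 moves a group mean by only part of it. For those settings the measure is a weak check. At 60 against 30 days the differences ranged over 1.88 to 2.36 (Egf), 3.09 to 3.68 (Ren1), 1.50 to 2.16 (Crisp1) and 1.57 to 1.93 (Crisp3). At 90 against 60 days Ren1 kept its sign (-1.30 to -0.82), as did Crisp1 (0.67 to 1.36), while Egf (-0.35 to 0.13) and Crisp3 (-0.22 to 0.34) took both signs. The 3 genes most like each member were the same with a prior count of 0.5. The number of genes called depended more on the setting, and the cause was not tested. Of 238 genes called at 60 against 30 days, the count became 90 with library-size scaling, 109 with Mucl2 left out of the totals, 376 with DESeq2 and 459 with no filter. At 90 against 60 days 39 became 150 with DESeq2 and 354 with no filter. At 90 against 30 days 544 became 867 and 1045. Leaving out each sample in turn gave 73 to 244, 16 to 103 and 184 to 703 genes. Omission moved a count over 1.5 times for 30-day samples 1 (102, 87 and 184), 2 (132 and 333) and 3 (147), 60-day samples 2 (73 and 18) and 3 (103), and 90-day samples 2 (16 and 190) and 3 (247). Of all listed genes, 14 were called at 60 against 30 days (6 with library-size scaling, 7 without Mucl2, 7 to 16 leaving samples out). At 90 against 60 days 1 was called (2 without Mucl2, 4 with DESeq2, 2 with limma-voom, 13 with no filter, 0 to 5 leaving samples out), and at 90 against 30 days 20 (32 with DESeq2, 35 with no filter, 9 to 27 leaving samples out). Library-size scaling shifted the median gene by 0.05, 0.17 and 0.24, and split the calls 79 higher to 11 lower, 19 to 9 and 406 to 34, beside 173 to 65, 14 to 25 and 275 to 269. The labels do not say whether equal sample numbers are matched. Deviations of same-numbered libraries correlated at -0.06 to 0.19 over 9 pairs, beside -0.21 to 0.19 over 18 pairs of unlike number. These ranges lie over each other, so the correlations cannot decide whether the samples are paired. With the sample number as a replicate block, Egf differed by 2.21 at 60 against 30 days, and the calls became 270, 92 and 717 (16, 4 and 29 of the listed genes). Depth limits Crisp1 and Ren1 most, with 17 and 24 reads in 30-day sample 1.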
